A study of Mus musculus with 30 samples.

Results

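Genes of the p38 and JNK stress kinase cascades were followed in nuclear RNA-seq of mouse embryonic stem (ES) cells: Map2k3 and Map2k6, Map2k4 and Map2k7, Mapk11 and Mapk14, and Mapk8 and Mapk9. These 8 genes of the 55401 in the count tables were chosen by name, and the set was chosen because the exon count of Map2k6 was lower after 6 h of IAA in SYAT cells. The 6 h contrast of the SYAT cells is therefore given as a description without a test, and so are the other contrasts of Map2k6 against the same control libraries. All 8 genes passed the filter on low counts in the exon column of each of the 4 tables.

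SYAT cells are CGR8 mouse ES cells in which SRCAP, the ATPase of the complex that exchanges H2A for H2A.Z, carries YPet-AID on both alleles, and in which OsTir1 is expressed from the EF1a promoter. The plant hormone IAA makes OsTir1 target the AID tag for degradation. The cells came from 1 clone with the homozygous tag, then received OsTir1 by lentivirus and were sorted as YPet-negative after IAA, and the cells with wtSRCAP or cdSRCAP were sorted for similar mCherry before each experiment. IAA was given at 500 µM for 2, 4, 6 or 8 h to asynchronous SYAT cells (10 libraries with the controls), for 4 h to CGR8 cells, which carry neither tag nor OsTir1 (4 libraries), and for 1 h to SYAT cells sorted in early G1 (EG1) or late G1 (LG1), which also carried an mCherry reporter degraded in mitosis (8 libraries). A further 8 libraries came from SYAT cells with doxycycline-inducible mCherry fusions of wild-type SRCAP (wtSRCAP) or of a form without catalytic activity (cdSRCAP), 1 clone of each, induced for 24 h in controls and IAA samples alike and treated with IAA for 4 h. Control SYAT cells received auxinole, an inhibitor of Tir1, for which the methods and the labels give different doses. Each of the 15 conditions had 2 replicates, so that p-values measure the spread between these samples. In bulk RNA, fewer cells with a transcript and less of it per cell cannot be told apart.

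Stress-activated MAPK cascades pass a signal through 3 tiers of kinases, in which a MAP3K phosphorylates a MAP2K and the MAP2K phosphorylates a MAPK. MKK3 and MKK6 (Map2k3 and Map2k6) activate p38, and MKK4 and MKK7 (Map2k4 and Map2k7) activate JNK, although MKK4 can also act on p38. In mouse ES cells p38 and JNK are known for roles in responses to stress and in the exit from self-renewal, while the related ERK1/2 cascade drives lineage priming.

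The study found SRCAP enriched at promoters and describes effects at enhancers too. The promoters of the 3 members that were below their controls in every IAA-treated library of the SYAT time course (Map2k6, Map2k7 and Mapk9) are shown. That of Map2k3, the other activator of p38, is set beside them. This choice was made after the values were seen, with the 6 h libraries included. The share of all genes below their controls throughout is not given here, so nothing is read from this count. The sequences are from RefSeq (GRCm38.p6), are written 5′ to 3′ on the strand of the gene, and end before the RefSeq or GENCODE start, whichever comes first, at most 250 bases long. Capitals mark matches, on either strand, to 7 motifs: the TATA box, searched as TATAAA, the box known by its letters CCAAT, the GC box, searched as GGGCGG, the E-box, searched as CACGTG, the site of AP-1, searched as TGANTCA, the half-site of the CRE, searched as TGACG, and the core of ETS factors, searched as CGGAAG. No match shown overlaps another.
Map2k6, chr11:110398852-110399101, plus strand: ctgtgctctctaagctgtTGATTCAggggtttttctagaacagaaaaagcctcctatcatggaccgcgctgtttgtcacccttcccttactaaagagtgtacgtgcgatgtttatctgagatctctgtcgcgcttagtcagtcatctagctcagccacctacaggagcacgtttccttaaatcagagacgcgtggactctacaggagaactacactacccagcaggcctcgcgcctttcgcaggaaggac
Map2k3, chr11:60931804-60932032, plus strand: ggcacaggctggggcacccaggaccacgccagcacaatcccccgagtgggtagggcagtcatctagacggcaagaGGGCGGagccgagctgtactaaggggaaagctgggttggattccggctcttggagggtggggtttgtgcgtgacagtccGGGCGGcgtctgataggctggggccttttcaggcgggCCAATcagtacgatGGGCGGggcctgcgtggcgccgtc
Map2k7, chr8:4238490-4238739, plus strand: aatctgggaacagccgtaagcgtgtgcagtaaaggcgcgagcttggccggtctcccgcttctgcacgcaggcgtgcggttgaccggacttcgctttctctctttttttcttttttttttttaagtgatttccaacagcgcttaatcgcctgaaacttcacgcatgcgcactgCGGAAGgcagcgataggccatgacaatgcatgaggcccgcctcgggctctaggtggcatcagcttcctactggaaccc
Mapk9, chr11:49846501-49846750, plus strand: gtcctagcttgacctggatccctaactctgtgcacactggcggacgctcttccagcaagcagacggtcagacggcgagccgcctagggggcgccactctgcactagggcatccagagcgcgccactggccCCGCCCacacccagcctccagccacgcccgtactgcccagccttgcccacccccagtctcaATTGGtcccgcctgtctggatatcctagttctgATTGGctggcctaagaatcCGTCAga

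The Map2k6 window held 12 CG dinucleotides and 1 AP-1 match, and none of the other 6 motifs. The 229 bases shown of Map2k3 held 16 CG dinucleotides, 3 GC boxes and 1 CCAAT box, that of Map2k7 19 and 1 ETS core, and that of Mapk9 14, 2 CCAAT boxes, 1 GC box and 1 CRE half-site. Among 32851 RefSeq windows of this length, 6.75% held an AP-1 match, 32.7% a GC box, 33.8% a CCAAT box, 13.6% an ETS core, 17.8% a CRE half-site, 12.4% a TATA box and 6.02% an E-box, and the median number of CG dinucleotides was 6. These matches describe the letters only. RefSeq lists 2 further starts of Map2k6, 79393 and 80218 bases downstream of the GENCODE gene start, and the counts per gene do not separate them.

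Map2k6 spans chr11:110399122-110525522 on the plus strand (GRCm38, GENCODE) with 3444 bases of exons and overlaps no other annotated gene. Map2k3 (chr11:60932033-60952811), Mapk9 (chr11:49846751-49886421) and Mapk11 (chr15:89142486-89149628) are likewise free of overlaps. Map2k7 (chr8:4238740-4247897) overlaps Gm49320 on its own strand, Mapk14 (chr17:28691329-28748406) overlaps AC170998.1, Mapk8 (chr14:33377898-33447158) overlaps Gm49037 on its strand and Gm46448 on the other, and Map2k4 (chr11:65688243-65788297) contains Mir744. Their counts are less certain for this reason, and Map2k7 had almost no counts in any intron column and was tested in exons only.

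Exon columns held between 12236493 and 60214521 counts. The intron columns were not made alike. In the SYAT time course 53.15% of 1302 genes with a single exon had intron counts, and in EG1 44.74% of 2215, against 0.05371% in CGR8, 0.09592% in LG1 and 0.09355% in wtSRCAP and cdSRCAP cells. Intron columns of the SYAT time course and of EG1 thus also hold exonic reads. All 8 markers of ES cells tested were expressed in every table, with summed levels of 1510 to 4430 CPM, while sums were 5.19 to 23.5 for 6 markers of extraembryonic endoderm, 26.4 to 114 for 6 of trophoblast, 49.7 to 192 for 6 of neural cells and 6.21 to 52.1 for 6 of fibroblasts. No marker was at 0 in all libraries of a table. In replicate 2 of SYAT at 6 h the most abundant gene took 10.2% of exon counts, against 3.06% to 4.51% in the other replicate 2 libraries of SYAT and 6.07% to 8.47% in replicate 1. The exon values of the members at 6 h are also given without this library. Those in introns and those of other genes at 6 h include it. In wtSRCAP and cdSRCAP cells that share reached 23.9% in the replicate 1 libraries and was 4.42% to 6.71% in replicate 2. Srcap RNA, which the degron does not target, was at 815 and 936 normalized exon counts in SYAT controls and between 917 and 1231 in SYAT cells with IAA, so it is no check of the degradation.

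Levels were first compared between the genes without IAA, as exon CPM per kb of exon. Mapk14, the p38α gene, had the highest level in all 6 control groups, from 22.7 ± 4.63 (SD, n = 2) in LG1 to 27.4 ± 0.281 in wtSRCAP cells. Mapk11, which encodes p38β, was at 3.60 ± 0.672 in SYAT controls. Map2k4 (16.6 ± 1.26), Map2k3 (14.3 ± 0.684) and Map2k7 (13.0 ± 0.788) followed Mapk14 in SYAT controls, and the 2 libraries of Map2k3 lay close to those of both neighbours in this order. Mapk9, the JNK2 gene, was at 6.72 ± 0.252 and Mapk8, the JNK1 gene, at 2.48 ± 0.0888. Map2k6 was at 2.82 ± 0.147 in SYAT controls and was the lowest of the 8 in the other 5 control groups, down to 1.21 ± 0.488 in wtSRCAP cells. Map2k3 was at 23.7 ± 4.03 in CGR8 controls, and Map2k6 there at 2.35 ± 0.287. Levels of different tables were scaled separately and were not tested against each other.

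**Figure D1:**
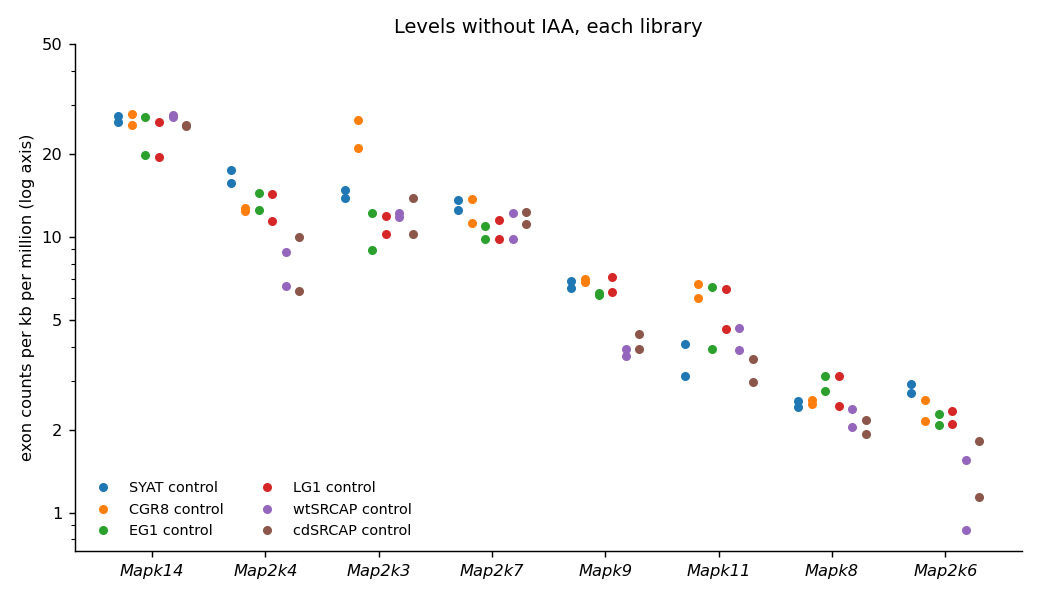
Exon CPM per kb of exon (log axis) of the 8 genes in the 2 libraries of each of the 6 control groups, coloured by group. Mapk14 lies above 19 in all libraries, and Map2k6 and Mapk8 lie below 4.

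Map2k6 was followed first through the SYAT time course, in exon counts scaled to a common library size (normalized counts). Controls had 191.3 and 205.9 normalized counts. The libraries of 2 h of IAA were at 160.4 and 133.5. Those of 4 h held 85.9 and 81.4, those of 6 h held 56.9 and 45.2, and those of 8 h held 42.0 and 55.4. All 8 IAA libraries lay below both controls, and the libraries of 2, 4 and 6 h did not overlap each other, while those of 6 and 8 h did. The group means were 74.0%, 42.1%, 25.7% and 24.5% of the control mean of 198.6 ± 10.3 (SD, n = 2). The log2 fold changes by edgeR were -0.44 (SE 0.241), -1.25 (SE 0.248), -1.96 (SE 0.26) and -2.02 (SE 0.257). Without replicate 2 of 6 h, the value at 6 h was -1.80 (SE 0.29). Of all 19205 genes tested at 6 h, 0.0677% were past 0.5 on the log2 scale in either direction with an adjusted p under 0.05, the rule that is meant by called below, and nothing is read from this share because the set was chosen on this contrast.

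The intron column of Map2k6 held 660.3 and 793.4 normalized counts in controls. It held 407.5 and 391.2 at 2 h, 219.1 and 328.0 at 4 h, 221.5 and 200.1 at 6 h, and 162.6 and 341.0 at 8 h. Again all 8 IAA libraries lay below both controls, and those from 4 to 8 h overlapped each other. The log2 fold changes were -0.86 (SE 0.344), -1.41 (SE 0.349), -1.79 (SE 0.354) and -1.53 (SE 0.35). After the exon counts were taken off these columns, which hold exonic reads too, the values were -1.15, -1.69, -1.85 and -1.78. At 2 h the mean of the intron column was 54.9% of control and that of the exon column 74.0%.

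**Figure D2:**
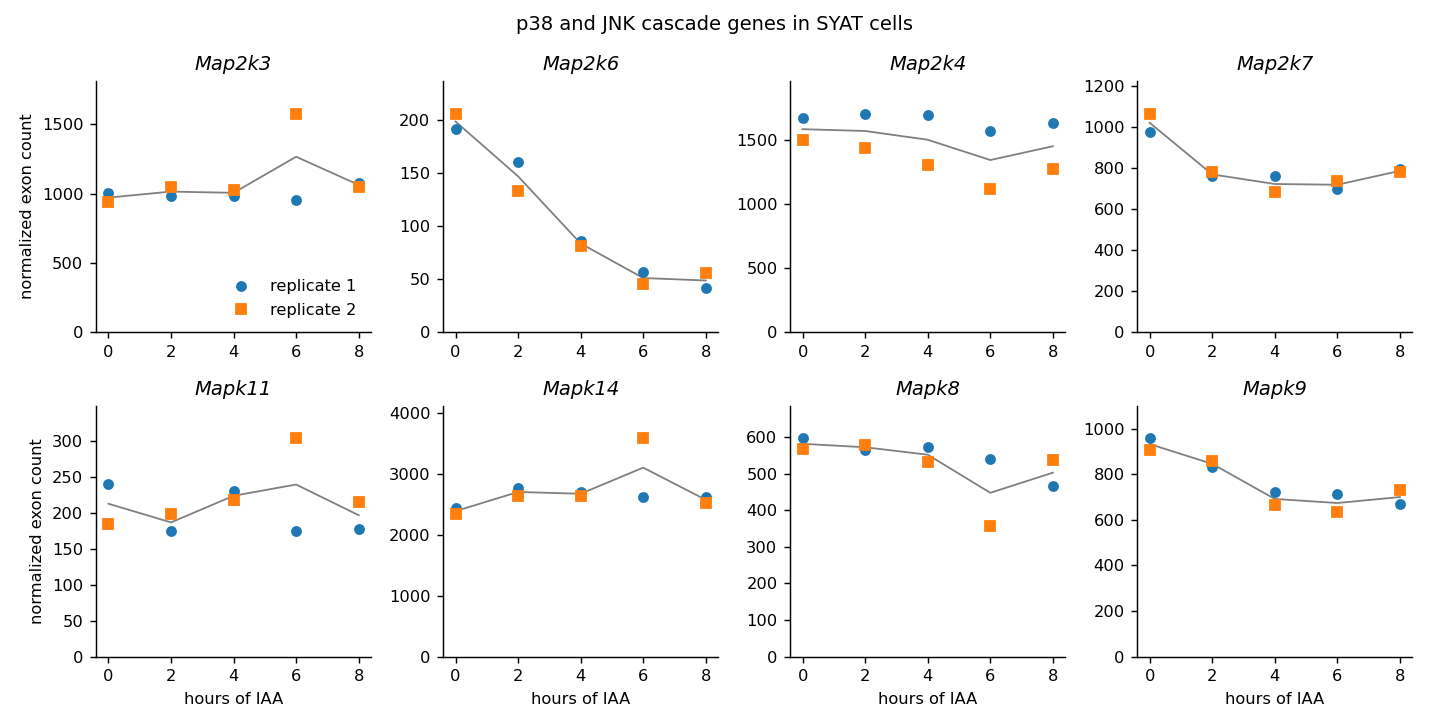
Normalized exon counts of the 8 genes in SYAT cells after 0 to 8 h of IAA, with replicates 1 and 2 as points and the line through their mean; each vertical axis starts at 0. Map2k6 went from a mean of 198.6 to 48.7, Map2k7 and Mapk9 lay below their controls at all times, and replicate 2 of 6 h lay apart for Map2k3, Mapk11 and Mapk14.

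A contrast that compared neither the controls nor the 6 h libraries was 8 h against 2 h of IAA, which was added after the data were seen. Its scaling and spread were still estimated with those libraries in the fit, so it is not independent of the choice. Map2k6 was lower at 8 h, by a log2 fold change of -1.59 (SE 0.256, 95% interval -2.15 to -1.01), which did not pass edgeR after adjustment over all genes (adjusted p = 0.392). No gene was called in this contrast by edgeR (0.0%), 5.23% had an unadjusted p under 0.05, among them 1 of the 8 members (Map2k6), and DESeq2 called 10 genes lower, Map2k6 among them (adjusted p = 0.00627), and 4 higher. Over 10 alternatives its adjusted p lay between 0.00192 and 1.0, under 0.05 in 3 of them. With only the 8 h and 2 h libraries in the edgeR fit, the value was -1.58 (adjusted p = 0.843). In the intron column the value was -0.66 (SE 0.345, adjusted p = 1.0), and it was -0.23 without replicate 1 of 8 h and -1.28 without replicate 2 of 8 h.

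The other activator of p38 did not follow Map2k6. Map2k3 had 1003 and 937.7 normalized exon counts in SYAT controls, 983.7 and 1044 at 2 h, 985.6 and 1024 at 4 h, 955.6 and 1575 at 6 h, and 1078 and 1046 at 8 h. These groups overlapped except at 8 h, where the log2 fold change was 0.13 (SE 0.201, adjusted p = 0.829). At 6 h it was 0.38 (SE 0.202) with replicate 2 and -0.02 without it.

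Of the JNK activators, Map2k7 was lower in every IAA library. Its controls held 975.3 and 1063 normalized exon counts, and the IAA libraries held 758.7 and 777.3 at 2 h, 759.8 and 682.7 at 4 h, 697.2 and 737.8 at 6 h, and 793.2 and 777.5 at 8 h. The 8 h mean was 77.1% of control. The log2 fold changes were -0.41 at 2 h, -0.50 at 4 h and -0.38 at 8 h, with SEs of 0.134, and their adjusted p-values of 1.0, 0.258 and 0.26 did not pass. At 6 h it was -0.51 (SE 0.135), and -0.54 without replicate 2. Map2k4 had 1667 and 1497 counts in controls and between 1112 and 1702 with IAA, and its log2 fold change ranged from -0.24 at 6 h, where it was -0.01 without replicate 2, to -0.01 at 2 h.

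Among the p38 genes, Mapk14 had 2443 and 2339 normalized exon counts in controls and lay above both in all 8 IAA libraries, between 2525 and 3585. Its log2 fold changes were 0.18 at 2 h, 0.16 at 4 h and 0.11 at 8 h, each with an SE of 0.148, and the lowest adjusted p was 0.806. At 6 h it was 0.38 (SE 0.149), and 0.14 without replicate 2. Mapk11 had 241.0 and 184.8 in controls and between 174.9 and 303.7 with IAA, and its groups overlapped at all times. At 6 h its log2 fold change was 0.17 (SE 0.27), and -0.27 without replicate 2.

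Of the JNK genes, Mapk9 lay below both controls (956.7 and 907.3 normalized exon counts) in all 8 IAA libraries. The IAA libraries had 831.1 and 859.3 at 2 h, 720.2 and 663.0 at 4 h, 712.6 and 634.9 at 6 h and 669.2 and 730.5 at 8 h. The log2 fold changes were -0.14 (SE 0.138), -0.43 (SE 0.138), -0.47 (SE 0.139) and -0.41 (SE 0.138), and the adjusted p-values of 0.348 at 4 h and 0.23 at 8 h did not pass. Without replicate 2, the 6 h value was -0.38. In the intron column the log2 fold changes were -0.20, -0.50, -0.55 and -0.46. This column holds exonic reads too (control mean 1124, against 932 in exons), so its values are not independent of the exon values. Mapk8 had 595.7 and 566.3 in controls and between 356.4 and 578.4 with IAA, of which 356.4 was the replicate 2 library of 6 h. Its log2 fold change at 8 h was -0.21 (SE 0.195, adjusted p = 0.693), and that at 6 h was -0.38 (SE 0.197) with replicate 2 and -0.11 without it.

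None of the 7 members other than Map2k6 was called by edgeR or by DESeq2 at 2, 4 or 8 h in exons, where edgeR called 0.0%, 0.0% and 0.00521% of 19205 genes and DESeq2 6 lower and 2 higher genes, 95 and 28, and 272 and 87. An unadjusted p under 0.05 was found for 1 of 7 at 2 h (Map2k7), against 3.92% of all genes, for 2 of 7 at 4 h (Map2k7 and Mapk9), against 9.1%, and for the same 2 at 8 h, against 13.6%. In the intron columns, which hold exonic reads too, 1 of 6 (Mapk9) had such a p at 4 h, against 9.5%, and at 8 h, against 13.5%. The 7 members had a median log2 fold change of -0.0233, -0.076 and -0.127 at 2, 4 and 8 h, and all genes 0.00337, 0.0181 and 0.0308. All times share the same 2 controls. The summed level of the trophoblast markers was 26.4 and 29.8 CPM in these controls and between 36.4 and 48.0 with IAA, and that of the ES cell markers lay between 1790 and 2250 in controls and between 1970 and 3110 with IAA. Their part in the members' values was not tested.

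**Figure D3:**
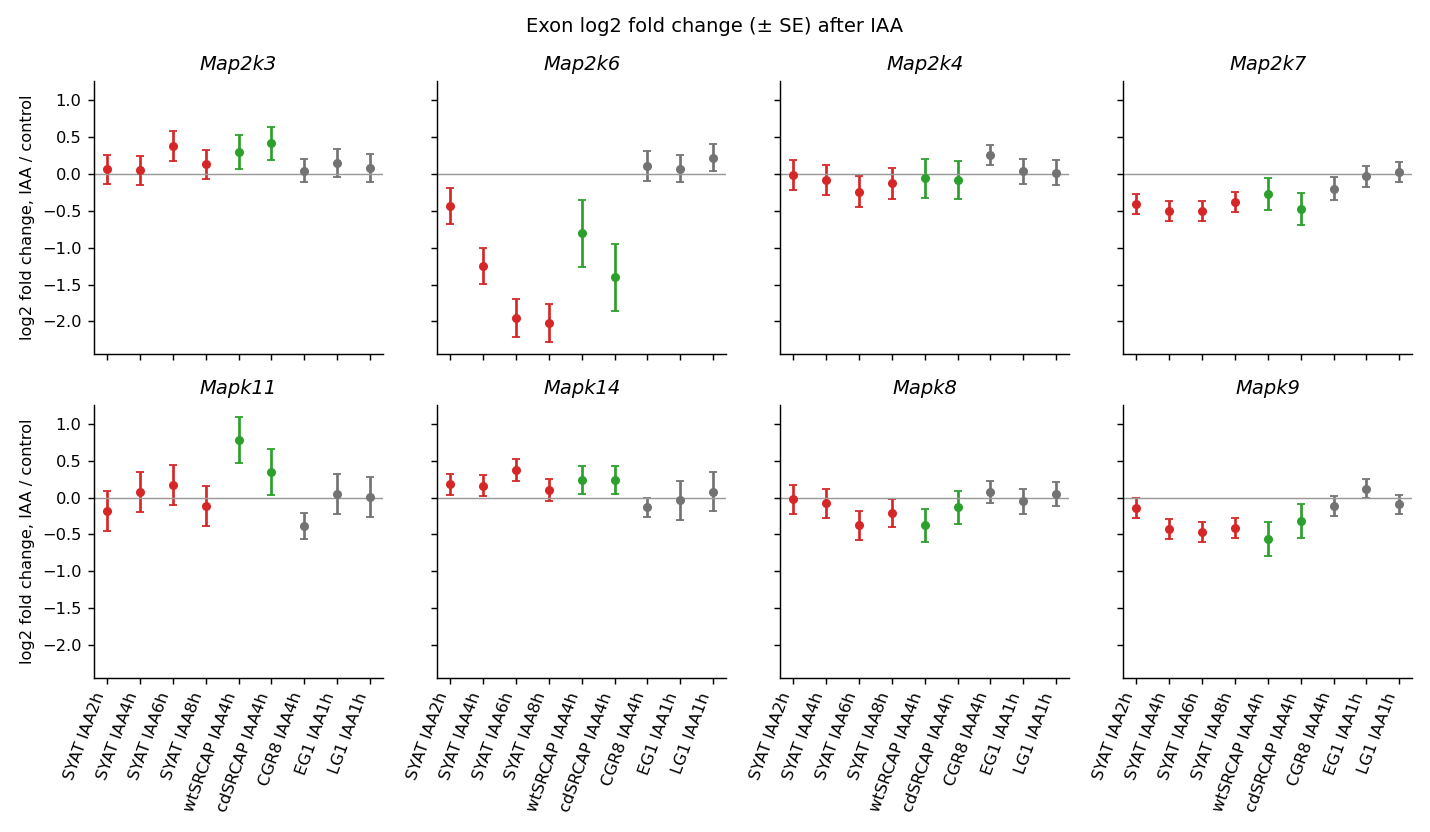
Exon log2 fold changes of the 8 genes after IAA with their standard errors (bars), for SYAT cells (red), wtSRCAP and cdSRCAP cells (green), and CGR8, EG1 and LG1 cells (grey). Map2k6 lies below 0 in SYAT, wtSRCAP and cdSRCAP cells, down to -2.02, and between 0.08 and 0.22 in the others.

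Libraries outside the 6 h contrast that chose the set came from cells in which endogenous SRCAP was degraded while wtSRCAP or cdSRCAP was expressed. The members were chosen with earlier results of these data known, so these libraries are not a fully independent check. In wtSRCAP cells Map2k6 had 54.8 and 98.5 normalized exon counts in controls and 35.9 and 51.1 after 4 h of IAA. The log2 fold change was -0.80 (SE 0.457, 95% interval -1.83 to 0.225, adjusted p = 0.745). The raw counts behind these values were low, from 20 to 118 reads. In cdSRCAP cells there were 72.0 and 115.3 in controls and 28.8 and 42.0 after IAA, a log2 fold change of -1.40 (SE 0.458, 95% interval -2.43 to -0.375, adjusted p = 0.751). IAA libraries lay below both controls in each line, and both controls of replicate 1 lay below those of replicate 2.

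In the intron column the same pattern had more counts. Map2k6 had 244.3 and 395.2 normalized intron counts in wtSRCAP controls and 79.4 and 140.8 after IAA, or 34.4% of the control mean. In cdSRCAP cells it had 469.1 and 509.2 in controls and 129.7 and 170.0 after IAA, or 30.6%. The log2 fold changes were -1.50 (SE 0.314, adjusted p = 0.108) and -1.70 (SE 0.304, adjusted p = 0.0645), so that neither was called by edgeR in the fit of the 4 conditions without a further term. With a term for the replicate number edgeR called both (adjusted p = 0.00582 and 0.00303), and so did DESeq2 without that term (adjusted p = 0.00107 and 0.000101). In these introns edgeR with that term called 173 genes lower and 119 higher in wtSRCAP cells, and 221 and 99 in cdSRCAP cells. For DESeq2 the numbers were 119 and 66, and 115 and 40. Over 10 alternatives each, the adjusted p ranged from 1.2e-06 to 0.395 in wtSRCAP cells, under 0.05 in 4, and from 1.26e-08 to 0.649 in cdSRCAP cells, under 0.05 in 5. With replicate 2 alone the log2 ratios were -1.49 and -1.58, and with replicate 1 alone -1.62 and -1.85.

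The response of Map2k6 to IAA was not shown to differ between the lines. The difference, cdSRCAP less wtSRCAP, was -0.60 in exons (SE 0.642, 95% interval -2.04 to 0.841, adjusted p = 1.0) and -0.20 in introns (SE 0.431, 95% interval -1.17 to 0.764, adjusted p = 1.0). Between the controls of the lines, the intron count of Map2k6 was higher in cdSRCAP cells by 0.61 (SE 0.294, adjusted p = 0.761) without passing. The lines are 1 clone each, so clone and SRCAP form cannot be told apart.

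**Figure D4:**
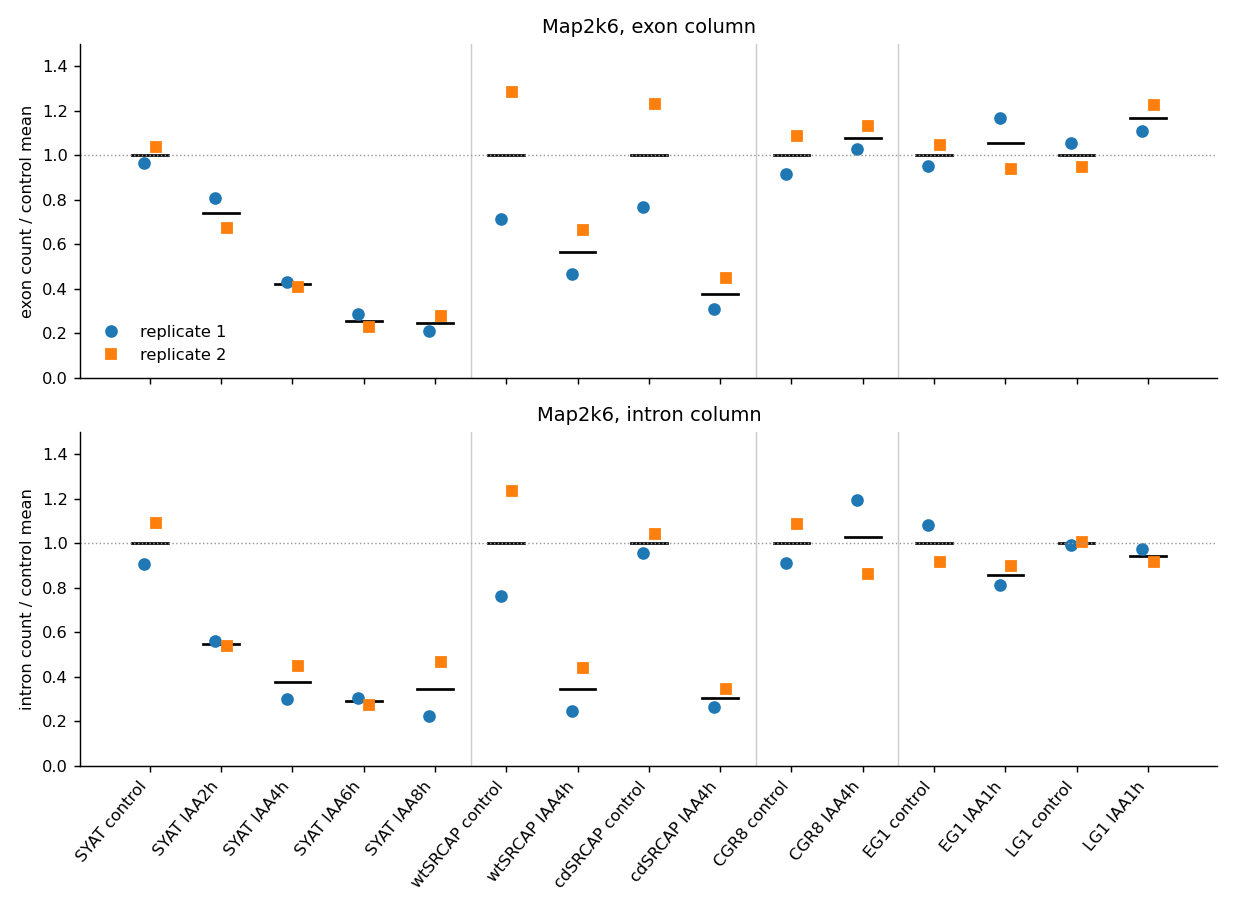
Map2k6 counts of the exon column (top) and the intron column (bottom) divided by the mean of the own controls, with replicates as points and their mean as a line, in all 15 groups. Means after IAA were 0.567 and 0.378 of control in wtSRCAP and cdSRCAP exons and 0.344 and 0.306 in introns, while those of CGR8, EG1 and LG1 cells lay between 0.857 and 1.17.

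Mapk9 had 463.0 and 489.9 normalized exon counts in wtSRCAP controls and 279.7 and 363.1 after IAA (log2 fold change -0.56, SE 0.232, adjusted p = 0.666), and 555.1 and 490.3 against 446.1 and 390.8 in cdSRCAP cells (-0.32, SE 0.23, adjusted p = 0.996). Its intron values were 0.01 (SE 0.246) in wtSRCAP and -0.15 (SE 0.24) in cdSRCAP cells, with overlapping groups in both. Map2k7 had 692.7 and 859.7 against 640.1 and 649.3 in wtSRCAP cells (-0.27, SE 0.216, adjusted p = 0.834) and 784.9 and 864.7 against 545.1 and 646.3 in cdSRCAP cells (-0.47, SE 0.216, adjusted p = 0.894). In exons both genes were lower after IAA in each line, without passing the adjustment. Their groups did not overlap, but this held in both lines for every member except Map2k4. The share of all genes without such overlap is not given here, so nothing is read from it.

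Mapk11 was the member with the highest value in wtSRCAP cells, at 496.7 and 289.1 after IAA against 205.9 and 247.1 in controls (log2 fold change 0.79, SE 0.31, adjusted p = 0.661). In cdSRCAP cells it had 242.3 and 203.6 after IAA against 157.8 and 190.7 (0.35, SE 0.311, adjusted p = 0.996). After IAA, the Mapk11 count was lower in cdSRCAP than in wtSRCAP cells (-0.81, SE 0.31, adjusted p = 0.951), and the 496.7 of replicate 1 stood far above the other library. Map2k3 and Mapk14 lay above their controls in both lines in exons, by 0.30 and 0.24 in wtSRCAP and 0.42 and 0.24 in cdSRCAP cells. In introns Map2k3 was higher by 0.70 in wtSRCAP cells (SE 0.274), and Mapk14 by 0.30 (SE 0.132) in wtSRCAP and 0.35 (SE 0.131) in cdSRCAP cells, with adjusted p-values of 0.337, 0.392 and 0.35.

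No member was called in the exons of either line by edgeR, which called 0.00523% of 19111 genes in wtSRCAP and 0.0% in cdSRCAP cells, or by DESeq2, which called 4 lower and 10 higher genes in wtSRCAP and 5 and 2 in cdSRCAP cells. An unadjusted p under 0.05 was found for 2 of 8 in wtSRCAP cells, against 7.4% of all genes, and for 1 of 8 (Map2k6) in cdSRCAP cells, against 5.64%. In introns edgeR called 0.299% and 0.236% of genes and no member, while DESeq2 called Map2k6 in both lines. DESeq2 called 119 genes lower and 66 higher there in wtSRCAP cells, and 115 and 40 in cdSRCAP cells. There an unadjusted p under 0.05 was found for 3 of 7 members (Map2k3, Map2k6 and Mapk14), against 12.4%, and for 2 of 7 (Map2k6 and Mapk14), against 11.3%. Between the lines, 0 members were called in controls (0.0% of genes), after IAA (0.00523%) or in the difference of the responses (0.0%), nor were any by DESeq2, and 1 of 8 (Mapk11) had an unadjusted p under 0.05 after IAA, against 5.03%.

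CGR8 cells gave the values after 4 h of IAA without the degron. Map2k6 had 389.3 and 462.9 normalized exon counts in controls and 437.7 and 482.4 with IAA. The log2 fold change was 0.11 (SE 0.204, 95% interval -0.356 to 0.575, adjusted p = 0.903), and 0.04 in introns (SE 0.194, 95% interval -0.404 to 0.478, adjusted p = 0.989). The groups overlapped in both columns. Map2k7 had 2773 and 2261 against 2298 and 2094 (-0.20, SE 0.157, adjusted p = 0.723), and Mapk9 2442 and 2504 against 2213 and 2353 (-0.12, SE 0.138, adjusted p = 0.827). Mapk11 was lower after IAA, at 804.4 and 676.3 against 1023 and 917.1 (-0.39, SE 0.177, adjusted p = 0.547), and Map2k4 was higher, at 3474 and 3892 against 3057 and 3114 (0.26, SE 0.137, adjusted p = 0.602). None of the 8 was called, by edgeR (0.00988% of 20250 genes) or DESeq2 (42 genes lower and 81 higher), and 0 of 8 had an unadjusted p under 0.05, against 9.16% of all genes.

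In sorted G1 cells Map2k6 was not called after 1 h of IAA. It had 162.2 and 178.1 normalized exon counts in EG1 controls and 198.6 and 160.0 after IAA (log2 fold change 0.08, SE 0.185, adjusted p = 1.0). In LG1 it had 183.8 and 165.2 against 193.7 and 214.0 (0.22, SE 0.185, adjusted p = 1.0), with both IAA libraries above both controls. In introns the values were -0.22 (SE 0.185, 95% interval -0.658 to 0.214) in EG1 and -0.08 (SE 0.187, 95% interval -0.52 to 0.36) in LG1. All 8 members had exon log2 fold changes between -0.05 and 0.16 in EG1 and between -0.09 and 0.22 in LG1. With the thresholds of the study for sorted cells (0.25 and an unadjusted p of 0.05), 0 of 8 members were called in exons by edgeR or DESeq2, against 1.22% of 21020 genes in EG1 and 1.02% in LG1, and 0 of 7 in introns, against 2.28% and 3.94%. Between EG1 and LG1 controls and in the difference of their responses to IAA no member was called, nor was any gene by edgeR (0.0% and 0.0%) or DESeq2, and no member had an unadjusted p under 0.05, which 303 and 147 genes had by edgeR. The Map2k6 difference between control phases was -0.04 in exons (SE 0.185, 95% interval -0.465 to 0.392).

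A list of 58 other genes of the pathway, from MAP3Ks to transcription factors, was tested beside the members. In the exons of the SYAT time course none was called by edgeR, and an unadjusted p under 0.05 was found for 2 lower and 4 higher genes at 2 h (10.3% against 3.92% of all), 5 and 5 at 4 h (17.2% against 9.1%), 1 and 10 at 6 h (19.0% against 16.1%) and 2 and 6 at 8 h (13.8% against 13.6%). Gadd45a, which encodes an activator of MAP3K4, had 312.4 and 298.8 normalized exon counts in controls and between 443.2 and 590.1 with IAA, above both controls in all 8 libraries. Its log2 fold changes were 0.55, 0.80, 0.82 and 0.77 at 2, 4, 6 and 8 h (SE 0.168, and 0.169 at 6 h), with adjusted p-values of 0.964, 0.183, 0.0724 and 0.0972 by edgeR, and DESeq2 called it at 4, 6 and 8 h (adjusted p = 0.0284, 0.00873 and 0.0198). Map3k1, which encodes MEKK1, had 1461 and 1488 in controls and between 1843 and 2303 with IAA. It was higher by 0.54 at 4 h, 0.52 at 6 h and 0.53 at 8 h (SE 0.131), with adjusted p-values of 0.212, 0.109 and 0.123. DESeq2 called Map3k1 in the intron columns at 4, 6 and 8 h (adjusted p = 0.00756, 0.00359 and 0.00185) and in the introns of wtSRCAP cells (adjusted p = 0.027). In the SYAT intron columns, which hold exonic reads too, it called 143 genes lower and 108 higher at 4 h. At 6 h these were 303 and 219, and at 8 h 281 and 186. DESeq2 also called Dusp1 and Jund in exons at 6 h (adjusted p = 0.0283 and 0.02), where it called 351 genes lower and 223 higher. In wtSRCAP cells Map3k1 had 1239 and 1763 normalized exon counts in controls and 2087 and 2871 after IAA (0.72, SE 0.257, adjusted p = 0.644), and in cdSRCAP cells 1303 and 1679 against 2240 and 2332 (0.62, SE 0.257, adjusted p = 0.867). Gadd45a had 1062 and 572.6 in wtSRCAP controls and 1510 and 645.0 after IAA. In cdSRCAP cells it had 862.4 and 608.5 against 984.4 and 694.1, so its groups overlapped in both lines.

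Others with the lowest p-values were Traf2 (-0.60), Tab1 (-0.53) and Dusp1 (0.54) at 2 h, each with an adjusted p of 1.0. At 4 h they were Map3k11 (-0.65, adjusted p = 0.33) and Mknk1 (-0.65, adjusted p = 0.446), at 6 h Spag9 (-0.43, adjusted p = 0.168) and at 8 h Map3k13 (-1.12, adjusted p = 0.226). Map3k11 was also lower after 4 h of IAA in CGR8 cells, without the degron (-0.56, SE 0.191, edgeR adjusted p = 0.54). Traf2 and Tab1 encode adaptors upstream of MAP3Ks, Dusp1 a phosphatase of MAPKs, Map3k11 and Map3k13 the MAP3Ks MLK3 and LZK, Mknk1 a kinase under p38 and ERK, and Spag9 a JNK scaffold. None of these passed after adjustment by edgeR.

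In the exons of CGR8, wtSRCAP and cdSRCAP cells none of the 57 list genes tested was called by edgeR. In CGR8 cells 10 of them were lower and 0 higher at an unadjusted p under 0.05 (17.5% against 9.16% of all genes). In wtSRCAP cells 1 was lower and 6 higher (12.3% against 7.4%), and in cdSRCAP cells 2 and 2 (7.02% against 5.64%). Atf3, a transcription factor of stress responses, was called after 1 h of IAA in EG1, with 303.1 and 251.8 normalized exon counts in controls and 514.3 and 386.6 after IAA (log2 fold change 0.70, SE 0.18, adjusted p = 1.0), and in LG1, with 349.7 and 360.2 against 481.1 and 509.5 (0.48, SE 0.179, adjusted p = 1.0). Dusp10, a phosphatase of p38 and JNK, was called in LG1, at 190.4 and 193.9 against 241.1 and 261.0 (0.39, SE 0.155, adjusted p = 1.0). In the introns of LG1, 3 list genes were called lower and 6 higher out of 56 (16.1% against 3.94% of all genes): Map3k11 (-0.79), Tab1 (-0.48) and Mapk8ip1, which was listed at 62 reads in 1 control and at 0 in the other 3 libraries, were lower, and Map3k7, Map3k9, Map3k6, Elk1, Gadd45g and Dusp10 were higher by 0.35 to 1.87. Elk1 had only 12 and 1 reads in LG1 controls and 40 and 9 after IAA. Gadd45g had 9 and 6 against 13 and 18, and Map3k6 8 and 11 against 29 and 16. The 16.1% thus rests in part on genes with few reads. The EG1 and LG1 intron columns were also filtered and fitted together, although they were not made alike. A gene such as Mapk8ip1, with 743 to 1109 reads in EG1 libraries, could thus pass the filter through EG1. None of the list genes called in EG1 or LG1 had an adjusted p under 0.05, which the thresholds for sorted cells do not ask.

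Of the 6 genes of the ERK1/2 and ERK5 cascades, Map2k5, which encodes MEK5, the activator of ERK5, was the one that passed with an adjusted p. In the introns of cdSRCAP cells it fell from 1564 and 1779 normalized counts to 889.8 and 818.0 after IAA (log2 fold change -0.97, SE 0.142, edgeR adjusted p = 0.0453). In wtSRCAP cells it had 1710 and 1572 in controls and 918.2 and 898.5 after IAA (-0.85, SE 0.143, adjusted p = 0.0519), and DESeq2 called it in both lines (adjusted p = 8.61e-05 in cdSRCAP and 0.00041 in wtSRCAP cells). In SYAT exons it went from 225.5 and 193.3 to 126.9 and 107.9 at 6 h (-0.83, SE 0.219, adjusted p = 0.122) and 123.0 and 132.7 at 8 h (-0.71, SE 0.216, adjusted p = 0.19). It was also called in the introns of EG1 (-0.47, SE 0.188, adjusted p = 1.0).

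The genes whose exon counts were most like those of Map2k6 over the 10 SYAT libraries were sought among 10725 others with a mean of at least 100 normalized counts. Shcbp1 (Pearson r = 0.987), Ubr1 (0.978), Cep135 (0.976), Pgm2l1 (0.974) and C2cd3 (0.974) came first, and Itpr3 (-0.987), Epb41l2 (-0.986) and Zfp423 (-0.978) last. These values are a description over libraries that share controls and a trend in time. Ubr1 encodes a ubiquitin ligase, Cep135 and C2cd3 centriole proteins, Itpr3 a calcium channel of the endoplasmic reticulum and Zfp423 a zinc finger transcription factor. The means of Shcbp1 went from 825.1 to 531.7 and those of Zfp423 from 1109 to 2841 between control and 8 h. Of the members, Mapk9 had the highest r (0.915, rank 132) and Map2k3 the lowest (-0.519, rank 8776). In wtSRCAP and cdSRCAP cells, in exons, Cep135 had log2 fold changes of -0.82 and -0.86 and Zfp423 of 0.91 and 0.81, with adjusted p-values between 0.622 and 0.735. The others had smaller values: Shcbp1 -0.47 and -0.49, Ubr1 -0.53 and -0.30, Pgm2l1 -0.22 and -0.28, and C2cd3 -0.33 and -0.42. Itpr3 was at 0.87 and 0.61, and Epb41l2 at 0.17 and 0.28. In CGR8 cells Cep135 was at 0.06 (SE 0.164) and Zfp423 at 0.40 (SE 0.146, edgeR adjusted p = 0.54).

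**Figure D5:**
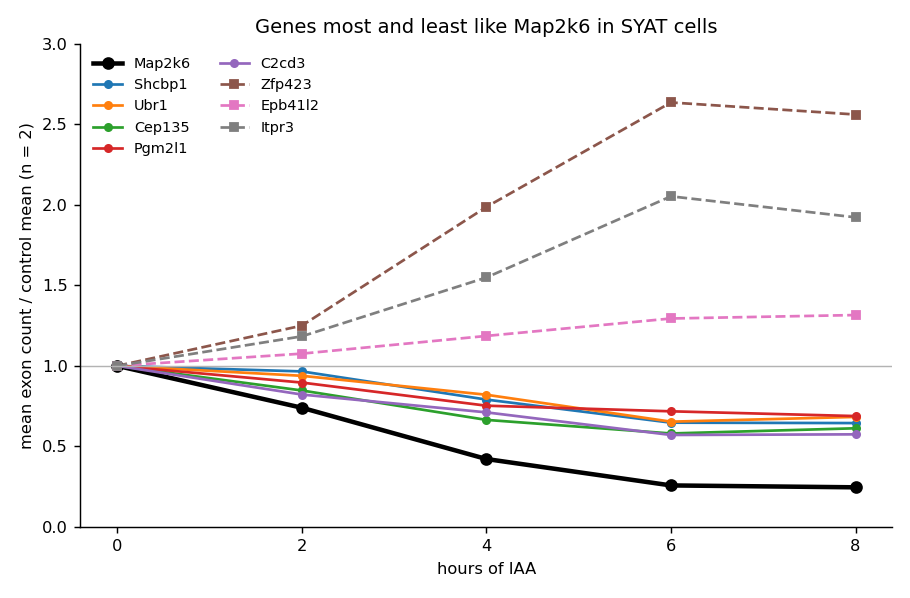
Mean normalized exon count divided by the control mean (n = 2 per time) against hours of IAA in SYAT cells, for Map2k6 (black), the 5 genes with the highest correlation with it (solid) and the 3 with the lowest (dashed). Map2k6 reached 0.245 at 8 h, below the 5 genes most like it.

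The expressed genes next to Map2k6 on chromosome 11 were not called. Abca5, 61406 bases upstream of the gene, had log2 fold changes of 0.15, -0.14, -0.23 and -0.34 at 2, 4, 6 and 8 h (SE 0.278 to 0.282, lowest adjusted p = 0.647), and Abca8b, 403277 bases upstream, of 0.11, 0.43, 0.15 and 0.36 (lowest adjusted p = 0.706). Downstream, Kcnj16 (442511 bases away) had values between -1.04 and -0.35 with SEs of 0.643 to 0.68, and Kcnj2 (540642 bases away) between -0.78 and 0.47 with SEs of 0.614 to 0.706. None of these 4 genes had an unadjusted p under 0.05 at any time.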

How the data were processed

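Nuclear RNA-seq libraries were made from 30 samples in 15 conditions with a kit that marks strand. Per the study's methods, STAR was used by the authors for alignment to mm10 and featureCounts for counting, with exons from GENCODE vM25 and introns taken as the gene body less exons, and the submitters' processing notes also name SAMtools 1.10, Picard and DESeq2. The strand setting of the counting is not given in the sources used here. The deposited counts are whole numbers without normalization, with an exon and an intron column for each library. The authors' tables of comparisons (log2 fold changes and p-values) were not used. All per-sample columns were matched to samples by name.

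Each column kind of each table was fitted with edgeR 4.0.16 (glmQLFit, glmQLFTest) in R 4.3.3, with TMM scaling, filterByExpr (minimum count 10, minimum total 15) and Benjamini-Hochberg adjustment over all genes tested. Normalized counts are counts divided by the TMM-scaled library size and brought to the geometric mean of the table. Intervals use the degrees of freedom of the fit. Standard errors are the log2 fold change divided by the root of F. Thresholds were those of the study, 0.5 on the log2 scale with an adjusted p under 0.05, or 0.25 with an unadjusted p under 0.05 in sorted cells. DESeq2 1.42.0 and the other settings named in the closing section were alternatives. The fits were tested on simulated data.

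Symbols and coordinates came from GENCODE vM21 (GRCm38), in which 55141 of 55401 identifiers matched without the version, and promoter windows from RefSeq. The members and lists were chosen with earlier results of these data known. Named were the 8 members, list genes past the thresholds or with the 2 lowest p-values in each direction at each SYAT time, the 5 genes with the highest and the 3 with the lowest correlation with Map2k6 (log2 of normalized counts plus 1), and its 2 expressed neighbours on each side.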

Additional observations from a re-analysis of the deposited data

Results flagged for a closer look

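Mapk14, the p38α gene, had a lower count after 4 h of IAA in CGR8 cells and a higher count in SYAT cells, without overlap of the groups in either. The share of all genes without such overlap is not given here, so nothing is read from it. Its exon log2 fold change was -0.13 (SE 0.13, adjusted p = 0.781 by edgeR) in CGR8 cells, with 6434 and 5865 normalized counts in controls and 5637 and 5583 after IAA, and 0.16 (SE 0.148, adjusted p = 0.841) in SYAT cells, with 2443 and 2339 in controls and 2710 and 2643 after IAA. The difference between the lines was not tested, since their tables were scaled separately. In the intron columns both values were above 0, at 0.14 in CGR8 and 0.21 in SYAT cells.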

How the results depend on the processing

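A change of sign was counted only where the reported value exceeded its standard error, so smaller values that changed sign are among those kept. Map2k6 after IAA in EG1 was such a case, at 0.08 in exons and -0.22 in introns. Another was Map2k6 in cdSRCAP less wtSRCAP cells after IAA, at -0.31 in exons and 0.41 in introns. For the number of members called and the log2 fold changes of Map2k6, 328 alternative values kept direction and side of the threshold or moved by less than 1 standard error, 12 passed the threshold that the reported value missed, 8 moved further and 1 turned. In introns, Map2k6 after IAA in wtSRCAP cells was called with the replicate number as a block (log2 fold change -1.52), without a filter on low counts (-1.52), by DESeq2 (-1.51) and by DESeq2 with the block and shrinkage (-1.27), and in cdSRCAP cells with the block (-1.73), without a filter (-1.67), by DESeq2 (-1.67), by DESeq2 with the block and shrinkage (-1.46) and with only the 2 conditions compared in the fit (-1.70). For 8 h against 2 h in SYAT exons, 1 member in place of 0 was called, Map2k6, without a filter (-1.59), by DESeq2 (-1.58) and by DESeq2 with the block and shrinkage (-1.02 on the shrunken scale). Shrinkage moved the SYAT exon values of Map2k6 to -0.87 at 4 h, -1.29 at 6 h and -1.34 at 8 h. In the intron column in place of exons Map2k6 was at -0.86 at 2 h and -1.53 at 8 h in SYAT cells and turned to -0.07999 in LG1 cells after IAA, and single members turned likewise: Mapk11 (0.12) and Mapk14 (0.14) in CGR8, Mapk9 (0.01452) in wtSRCAP and Mapk11 (-0.12) in cdSRCAP cells, Mapk9 (-0.0458) between the lines after IAA, and Mapk8 (0.005531) in SYAT at 8 h. The cause was not tested. Leaving out single libraries, the 6 h value of Map2k3 ranged from -0.01824 (without replicate 2 of 6 h) to 0.70, that of Map2k6 in SYAT exons from -2.13 to -1.80 at 6 h, in introns of wtSRCAP cells from -2.02 to -1.12 and of cdSRCAP cells from -1.88 to -1.49, and in exons from -1.16 to -0.31 and from -1.70 to -0.9969. A lone sample was then assumed to vary like the other groups. Samples of one number deviated together in part: the correlation of same-numbered deviations was 0.254 to 0.572 in SYAT exons without 6 h, -0.0395 to 0.053 in group pairs with 6 h, 0.35 to 0.569 in EG1 and LG1 exons and 0.122 to 0.619 in their introns, 0.228 to 0.341 in wtSRCAP and cdSRCAP exons and 0.0668 to 0.279 in their introns, and 0.066 in CGR8 exons. The sources do not say what a shared number marks, so neither fit is preferred on these values. With the block, 498 genes were called lower and 325 higher in SYAT exons at 6 h, in place of 7 and 6, and 280 and 332 in wtSRCAP exons, in place of 1 and 0. Of the 5 genes most like Map2k6, 2 were among the first 5 by Spearman's rho and 2 after the replicate means were taken off. Depth limits the exon values of Map2k6 in wtSRCAP and cdSRCAP cells (20 to 162 reads).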
